A study of Mus musculus with 12 samples.

Results

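Colon RNA from mice labelled FGF1 was compared with colon RNA from mice labelled DSS, over every gene that was measurable in these 8 libraries. A gene was kept when its summed level was 1 FPKM or more in at least 4 of the 8, where FPKM is the number of fragments scaled to transcript length and to library size. This kept 11868 of 22377 listed genes, with 20909 transcripts kept by the same minimum, of 56527 listed for those genes. Each group had 4 libraries, and 4 libraries labelled control are given beside them. Of the genes kept, 11320 (95.4%) were annotated as protein coding.

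The study asks whether the growth factor FGF1 protects the inflamed colon and steers intestinal stem cells into goblet cells. The samples are labelled control, dextran sulfate sodium (DSS, a detergent-like polymer given in drinking water that injures the colonic epithelium) or FGF1. The series text places recombinant FGF1 in a mouse model of inflammatory bowel disease, but the labels give the FGF1 samples no DSS treatment, and they state no dose, route, duration, strain, age or genotype for any group. They do not tie each library to its own animal, and a p-value here therefore covers only the spread between these libraries, which may be technical.

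FGF1 is a secreted growth factor that binds the FGF receptors and signals through the MAP kinase cascade, with the Sprouty genes among its feedback inhibitors. In the colon, stem cells at the crypt base give rise to absorptive colonocytes, which take up salt and water, and to secretory cells, of which goblet cells make the mucus layer. DSS colitis damages this lining, fills the wall with inflammatory cells and is followed by epithelial repair.

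The implied depth ran from 16800000 mapped fragments (DSS 1) to 22000000 (DSS 2) over the 8 libraries, and between 11190 (DSS 4) and 12245 genes (FGF1 3) reached 1 FPKM. Across genes, Spearman correlations between libraries had medians of 0.948 among DSS, 0.956 among FGF1 and 0.950 between them. Of 15 genes of colon identity 14 were kept, with a mean log2(FPKM + 1) of 8.63 to 9.03 in the 8 libraries, while Hoxb13, a homeobox gene of the distal colon, reached 1 FPKM in FGF1 3 alone of these libraries (2.15). None of 14 counts per library (transcripts, genes, and events of 12 splicing types) differed between the groups by an exact two-sided permutation test (p from 0.2 to 0.886, adjusted p from 0.5; the smallest p that 4 against 4 allows is 0.0286).

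Few genes differed between the FGF1 colon and the DSS colon at the adjusted threshold. By limma on log2(FPKM + 1) with Benjamini-Hochberg adjustment over all kept genes, 10 genes were called at an adjusted p under 0.05, which is 0.0843% of those tested, 6 higher in FGF1 (0.0506%) and 4 lower (0.0337%). Without adjustment 1478 genes (12.5%) were under 0.05, of which 1018 were higher (8.58%) and 460 lower (3.88%). The 4 FGF1 libraries did not overlap the 4 DSS libraries in 740 genes (6.24%), 513 of them higher in FGF1 (4.32%) and 227 lower (1.91%). In 28 of the 740, every library of one group was under 1 FPKM, so that the gene was kept only through the group where it is high and had to differ. None of the 10 called genes and no kept list member described below was among them. The median log2 fold change of all kept genes was 0.04, and it moved to -0.0044 when libraries were scaled by the median of ratios.

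No gene was called when FGF1 2 was left out (1217 genes at an unadjusted p under 0.05), when DSS 3 and DSS 4 were left out together (1128), or when a smooth muscle score entered the limma model as a covariate (1197), while 52 genes were called without DSS 1, 44 of them higher. Summing only transcripts with a listed start event called 1 gene, which was none of the 10, and the 8 libraries fitted without the controls called 3, of which 1 was shared.

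**Figure D1:**
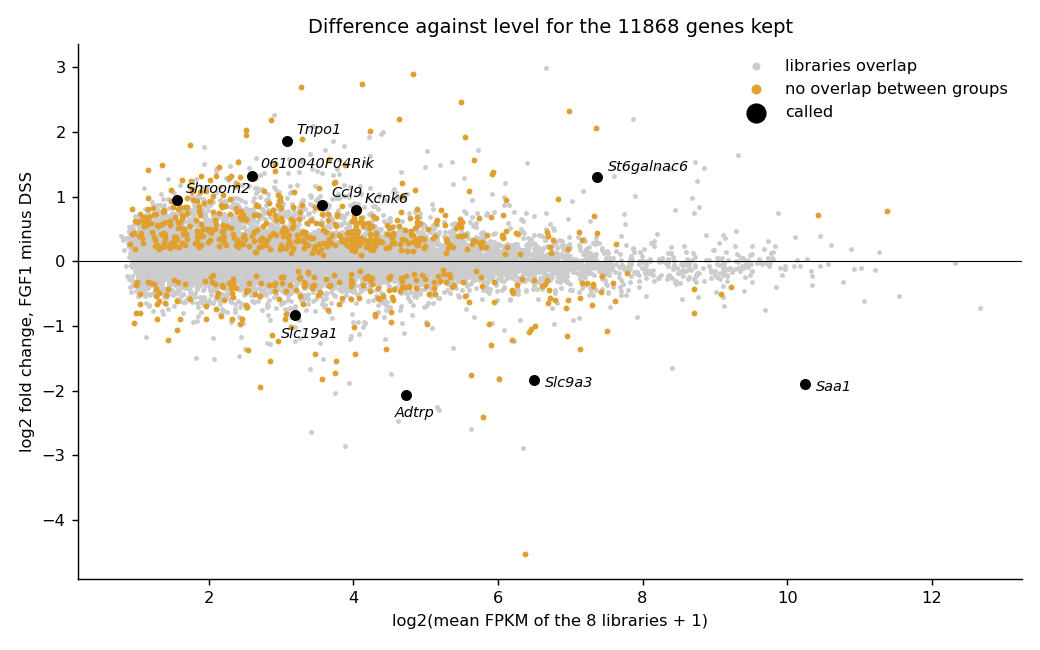
Log2 fold change of FGF1 against DSS (vertical axis, on the log2(FPKM + 1) scale) against the log2 mean level of the 8 libraries, 1 point per gene for the 11868 genes kept. Black points are the 10 called genes and orange points the genes whose 4 FGF1 and 4 DSS libraries do not overlap, 513 of them above 0 and 227 below.

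A transport gene of the absorptive surface was among the clearest differences. Slc9a3 encodes the sodium-proton exchanger that absorbs sodium at the brush border of colonocytes (chromosome 13, 74121457 to 74169442, plus strand, GRCm38). Its level was 151, 100, 112 and 203 FPKM in DSS 1 to DSS 4 and 46.4, 36.5, 35.1 and 33.9 in FGF1 1 to FGF1 4. Every DSS library was above every FGF1 library, and the FGF1 libraries lay beside the controls (36.1, 24.0, 27.2 and 32.3). Slc9a3 fell from 142 ± 46.3 to 38.0 ± 5.73 FPKM (SD, n = 4 per group), a log2 fold change of -1.83 ± 0.21 (SE, adjusted p = 0.0146). The call held in 19 of 25 alternatives, with log2 fold changes from -1.97 to -1.22 over all of them. It ended with start-event sums (adjusted p = 0.195) and with a fibroblast (0.192) or smooth muscle score (0.0508) as covariate. Leaving out FGF1 2 (0.0626), DSS 3 and DSS 4 (0.0614), or FGF1 3 and control 3 (0.0526) ended it as well. All 4 annotated Slc9a3 transcripts were listed, and they start within 500 bases of each other. The most abundant of them, Slc9a3-203, fell on its own (129.97, 76.2, 100.1 and 171 FPKM in DSS against 39.6, 29.1, 25.7 and 29.7 in FGF1, log2 fold change -1.86 ± 0.24, adjusted p = 0.0373).

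The 250 bases before the RefSeq start of Slc9a3 are printed because all its transcripts share this promoter. The window is chr13:74121163-74121412 on the plus strand of GRCm38.p6, from RefSeq, with capitals for matches to GGGCGG (the GC box bound by Sp factors) on either strand.
Slc9a3 promoter: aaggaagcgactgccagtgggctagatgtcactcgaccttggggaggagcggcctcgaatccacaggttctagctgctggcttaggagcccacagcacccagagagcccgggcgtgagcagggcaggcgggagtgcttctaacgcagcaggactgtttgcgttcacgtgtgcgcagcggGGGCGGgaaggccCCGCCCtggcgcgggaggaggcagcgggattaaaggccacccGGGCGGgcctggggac
It holds 3 GC boxes, at 71, 58 and 16 bases before the start, in a stretch that is 67.6% G or C, against a median of 52.4% over 32851 promoter windows of this length. A GC box on either strand occurs in 32.7% of those windows. Neither a TATA box (TATAAA, 12.4% of windows), a CCAAT box (CCAAT, 33.8%), TTTATG (a CDX motif, 10.8%), CAAAGTCCA (an HNF4 motif, 0.384%) nor a glucocorticoid element (0.00913%) was found in it. A match to letters describes the sequence and shows no binding.

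Other transport genes moved both ways. Slc19a1, the reduced folate carrier (chromosome 10, 77032241 to 77061002, plus strand), was at 13.3, 8.63, 10.4 and 10.8 FPKM in DSS and 5.57, 6.23, 5.19 and 5.43 in FGF1. All FGF1 libraries were lower, close to the controls (5.28 to 5.81), and the gene fell by 0.82 ± 0.12 on the log2 scale (adjusted p = 0.046). It shares its locus with Col18a1 on the other strand, and no source used here says that fragments were counted by strand. Kcnk6, a background potassium channel (chromosome 7, 29221926 to 29232515, minus strand), was at 11.496, 10.7, 11.524 and 10.2 FPKM in DSS and 17.4, 20.2, 23.8 and 18.0 in FGF1. It rose by 0.79 ± 0.12 (adjusted p = 0.046) without overlap. Slc9a3r2, a scaffold protein that binds the Slc9a3 exchanger, missed the threshold on the opposite side (4.77 ± 0.806 FPKM in DSS and 9.32 ± 1.84 in FGF1, log2 fold change 0.83 ± 0.14, adjusted p = 0.0508).

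Saa1, an acute-phase serum amyloid A protein also made by gut epithelium (chromosome 7, 46740497 to 46742980, minus strand), was the most abundant called gene. Its level was 1927, 1821, 1206 and 2774 FPKM in DSS and 513, 470, 591 and 429 in FGF1. The highest FGF1 library stood below the lowest DSS library, and the controls spanned 374 to 980. Saa1 fell from 1932 ± 645 to 501 ± 69.3 FPKM (log2 fold change -1.89 ± 0.30, adjusted p = 0.0492). Saa2, whose sequence is close to that of Saa1, was listed at 1.22 to 1.93 FPKM in DSS and 0 to 0.738 in FGF1, so how fragments were divided between them is uncertain. Saa3, a further family member, was at 148, 94.6, 53.0 and 90.3 FPKM in DSS and 19.2, 33.4, 9.52 and 64.1 in FGF1, which overlapped (-1.80 ± 0.53, adjusted p = 0.192).

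The Saa1 promoter (RefSeq, chr7:46742981-46743230, minus strand, GRCm38.p6, 250 bases before the start) is shown because the gene has a single listed transcript. Capitals mark a match to TTTATG on the opposite strand.
Saa1 promoter: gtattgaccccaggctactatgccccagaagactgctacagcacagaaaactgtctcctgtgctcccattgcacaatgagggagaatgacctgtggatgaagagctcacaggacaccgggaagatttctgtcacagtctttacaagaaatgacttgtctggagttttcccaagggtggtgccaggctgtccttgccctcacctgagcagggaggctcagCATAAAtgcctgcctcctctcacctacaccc
The match begins 31 bases before the start, and TTTATG occurs in 10.8% of promoter windows. On the printed strand the match reads CATAAA, which differs from TATAAA only in its first base, and only exact matches were searched. None of the other motifs searched was found in this window, and 9 of the 10 called genes had a window in the RefSeq table. Among the 9, TATAAA occurred for Ccl9 (3 times) and at 2 of the 4 Shroom2 starts.

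Adtrp, a membrane hydrolase that cleaves fatty acid esters of hydroxy fatty acids (chromosome 13, 41763148 to 41847684, minus strand), showed the largest fall among called genes. It was at 53.5, 34.2, 38.3 and 37.1 FPKM in DSS and 9.19, 8.76, 3.66 and 18.9 in FGF1. All FGF1 libraries were below all DSS libraries, and 3 of them below every control (16.8 to 23.5). The log2 fold change was -2.07 ± 0.33 (adjusted p = 0.0492), and -0.61 in the alternative that gave the smallest change.

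The Adtrp difference lay in transcripts from one of its starts. Adtrp-203, Adtrp-205 and Adtrp-207 start between 41828359 and 41828453, inside the gene, and summed to 43.8, 23.9, 28.0 and 28.8 FPKM in DSS. The same transcripts were listed at 0 in FGF1 1 to FGF1 3 and at 4.44 in FGF1 4, against 11.99 to 15.3 in the controls. Adtrp-201 and Adtrp-202, which start near 41847684, were at 8.32 to 10.3 FPKM in DSS, 3.66 to 14.5 in FGF1 and 4.46 to 8.85 in control, so these overlapped. The share of Adtrp-201 in the gene was 12.5% to 20.04% in DSS and 63.0% to 100% in FGF1 (adjusted p = 0.0594 by limma on the log ratio of the transcript to the rest). Of 8 annotated Adtrp transcripts, 6 were listed. The grouping by start was made after these values were seen and has no test.

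Tnpo1, transportin 1, which carries proteins with a nuclear localisation signal into the nucleus (chromosome 13, 98839019 to 98926384, minus strand), showed the largest rise among called genes. It was at 5.53, 2.04, 1.81 and 2.00 FPKM in DSS and 10.6, 12.95, 11.2 and 13.8 in FGF1. DSS 1 stood above the other DSS libraries, and no library of the groups overlapped. The gene rose from 2.85 ± 1.79 to 12.2 ± 1.48 FPKM (1.86 ± 0.22, adjusted p = 0.0146), beside 12.7 ± 0.247 in control. The call held in 16 of 25 alternatives, and with start-event sums the gene pointed the other way (-0.73, adjusted p = 0.831). The call ended without DSS 4 or FGF1 2 (adjusted p up to 0.0804), with the 8 libraries alone (0.0702) and with a block for replicate number (0.0579). It also ended with the smooth muscle (0.0657) or fibroblast score (0.192) as covariate. Leaving out DSS 3 and DSS 4 (0.103) or FGF1 3 and control 3 (0.0526) ended it as well.

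One Tnpo1 transcript carried this change. Tnpo1-202, which starts at the upstream start, was at 1.499, 1.99, 1.81 and 1.85 FPKM in DSS and 10.6, 12.6, 11.003 and 12.3 in FGF1, and it had the smallest adjusted p of any transcript (2.18 ± 0.11, adjusted p = 1.35e-05). The controls ran from 11.8 to 13.01. In DSS 1 transcripts from the downstream start added 2.97 FPKM, against 0 to 0.184 in the FGF1 libraries. Tnpo1-203 is annotated but was not among the 5 listed transcripts, so its part of the gene is not in these sums.

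The 250 bases before each RefSeq start of Tnpo1 are printed because the difference sat at the upstream one. They are chr13:98926385-98926634 and chr13:98891043-98891292, both on the minus strand of GRCm38.p6, with GC boxes in capitals.
Tnpo1 upstream promoter: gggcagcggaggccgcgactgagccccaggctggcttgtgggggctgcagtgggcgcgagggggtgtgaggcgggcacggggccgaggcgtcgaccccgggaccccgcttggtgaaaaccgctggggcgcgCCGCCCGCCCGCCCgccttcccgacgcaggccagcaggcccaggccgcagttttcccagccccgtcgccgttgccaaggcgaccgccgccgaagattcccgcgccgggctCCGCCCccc
Tnpo1 downstream promoter: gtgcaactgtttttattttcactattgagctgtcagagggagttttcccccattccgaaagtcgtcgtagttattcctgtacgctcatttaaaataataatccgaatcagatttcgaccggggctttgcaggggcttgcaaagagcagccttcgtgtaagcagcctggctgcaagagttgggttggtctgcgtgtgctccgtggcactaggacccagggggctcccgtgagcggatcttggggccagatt
The upstream window is 78.0% G or C with 4 GC boxes, of which 3 overlap and all read on the opposite strand (CCGCCC), and the downstream window is 51.6% G or C with none.

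The 4 remaining called genes were all higher in FGF1. St6galnac6, a sialyltransferase that adds sialic acid to glycan chains (chromosome 2, 32599709 to 32620806, plus strand), was at 122, 92.2, 92.0 and 69.0 FPKM in DSS and 218, 254, 301 and 166 in FGF1. The FGF1 libraries spanned the control range of 181 to 241, and the gene rose by 1.31 ± 0.20 (adjusted p = 0.046). Its transcripts were spread unevenly: St6galnac6-204 was at 148 FPKM in FGF1 1 and at 0.0738 to 0.186 in the other FGF1 libraries, while St6galnac6-201 was at 199 and 241 in FGF1 2 and FGF1 3. All 13 annotated transcripts were listed.

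Ccl9, a chemokine that attracts myeloid cells through CCR1 (chromosome 11, 83572919 to 83578636, minus strand), was at 7.70, 5.85, 9.32 and 6.84 FPKM in DSS and 12.7, 16.8, 14.4 and 13.6 in FGF1. All FGF1 libraries were also above all controls (9.80 to 12.4), and Ccl9 rose by 0.88 ± 0.14 (adjusted p = 0.0492). Shroom2, an actin-binding protein that shapes epithelial cells (chromosome X, 152609509 to 152769465, minus strand), was at 1.4999, 0.819, 0.933 and 0.850 FPKM in DSS and 2.33, 3.58, 2.60 and 3.10 in FGF1. Its levels were low but separate, and it rose by 0.95 ± 0.14 (adjusted p = 0.046, and 0.0897 with no filter on low values), with 1 DSS library beside the FGF1 libraries at or above the minimum of 1 FPKM.

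The noncoding gene 0610040F04Rik (chromosome 6, 108577039 to 108660934, minus strand), which is antisense to Bhlhe40, was at 2.44, 3.31, 1.61 and 2.52 FPKM in DSS and 6.50, 8.96, 8.24 and 6.79 in FGF1. It rose by 1.32 ± 0.17 (adjusted p = 0.018), a call that held in 15 of 24 alternatives. Of single libraries left out, DSS 4, FGF1 2 and FGF1 3 each ended it, and over all alternatives the adjusted p reached 0.192. Without strand information the fragments of 0610040F04Rik cannot be told from those of the genes it overlaps.

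The calls of Slc19a1, Shroom2, Kcnk6, St6galnac6, Ccl9, Adtrp and Saa1 rested on little margin. They held in 5 to 7 of 24 or 25 alternatives each, and leaving out a single library ended each of them for 9 to 11 of the 12 libraries (adjusted p up to 0.138). Their log2 fold changes kept their sign in every alternative, between -2.41 (Adtrp) and 2.13 (St6galnac6).

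**Figure D2:**
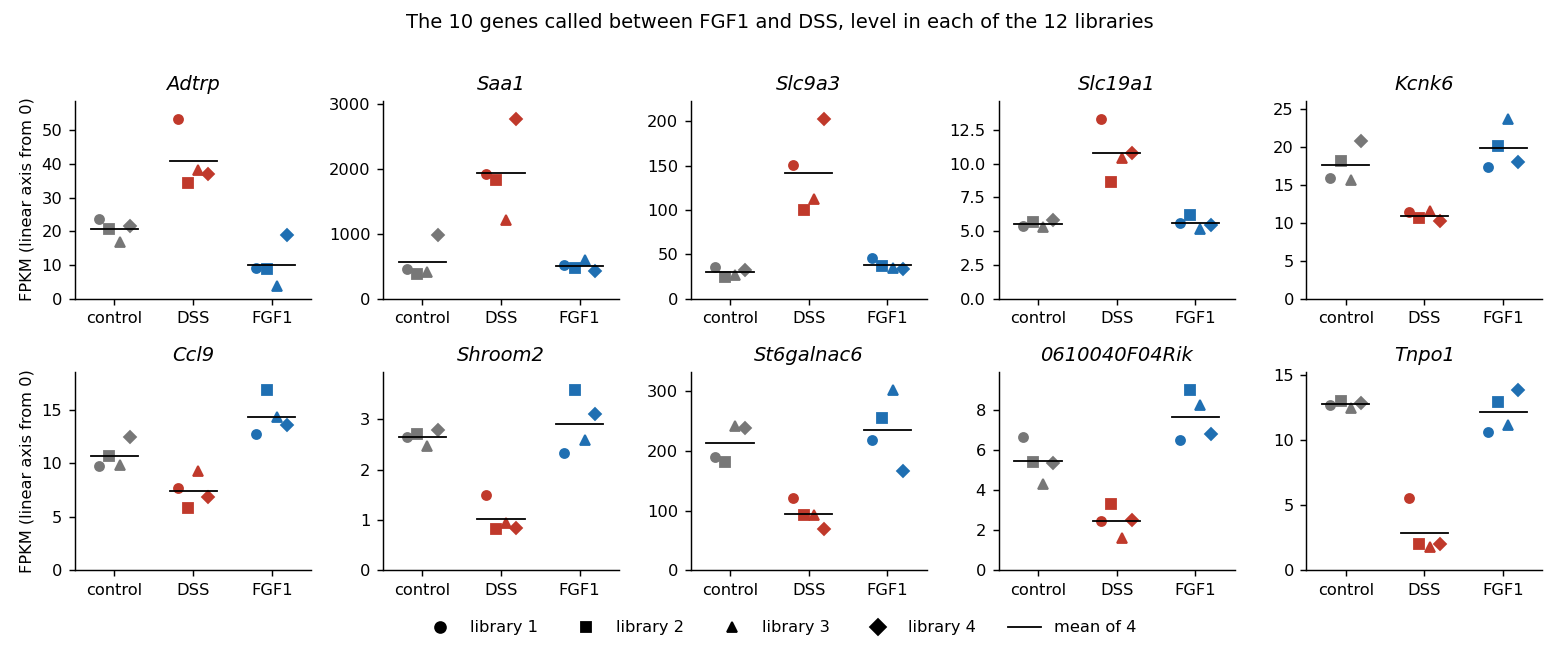
Level in FPKM (linear axes from 0) of the 10 called genes in the 4 control, 4 DSS and 4 FGF1 libraries, with the marker shape giving the library number and a line at the mean. In each panel the FGF1 and DSS libraries do not overlap, for example Slc9a3 at 33.9 to 46.4 in FGF1 and 100 to 203 in DSS.

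Of the genes just outside the threshold and lower in FGF1, Gcnt1, which branches mucin-type glycans, was at 6.12 ± 0.870 FPKM in DSS and 2.65 ± 0.645 in FGF1 (-0.97 ± 0.16, adjusted p = 0.0508). Marc2, a mitochondrial amidoxime reductase, was at 58.0 ± 5.59 and 37.2 ± 4.14 (-0.63 ± 0.10, adjusted p = 0.0508). Slc10a2, the bile acid transporter of the ileal brush border, was at 76.2, 115, 62.9 and 109 in DSS and 29.1, 21.4, 5.11 and 18.3 in FGF1 (-2.41 ± 0.47, adjusted p = 0.0754). The libraries of these 3 genes did not overlap. Prodh, which degrades proline (-1.02), Vldlr, a lipoprotein receptor (-0.90), Iyd, which recovers iodide from iodotyrosines (-0.71), and Dnajc19, of the mitochondrial import motor (-0.57), had adjusted p from 0.0602 to 0.0695. Iyd alone of them stood below the controls too (3.01 to 3.96 FPKM in FGF1 against 6.25 to 8.03 in control).

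On the higher side, Utp20, which processes ribosomal RNA, was at 3.95 ± 0.706 FPKM in DSS and 8.26 ± 1.58 in FGF1 (0.90 ± 0.15, adjusted p = 0.0508). Fam83c was at 0.912 ± 0.106 and 2.69 ± 0.584 (0.94 ± 0.15), and Gm12551 at 1.44 ± 0.235 and 5.16 ± 1.21 (1.32 ± 0.22), both with adjusted p = 0.0508. In DSS 1 to DSS 4 Fam83c was at 0.889, 0.882, 0.813 and 1.06 FPKM, so it met the minimum of 1 FPKM mainly through FGF1. The FGF1 libraries of Gm12551 (4.20 to 6.84) were above the controls as well (0.696 to 2.35). Sstr2, a somatostatin receptor, was at 0.781 ± 0.0783 and 1.97 ± 0.205. It was tested only because all FGF1 libraries passed the minimum of 1 FPKM, which no DSS library reached, so its p is not given as support.

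Beside Tnpo1-202 and Slc9a3-203, the called transcripts described here were of low level. Transcripts called were 6 of 20909 (0.0287%), 3 in each direction (0.0143%), and 1834 (8.77%) had an unadjusted p under 0.05, 1152 higher (5.51%) and 682 lower (3.26%). Libraries did not overlap for 1054 transcripts (5.04%), 704 higher (3.37%) and 350 lower (1.67%). Of the 6 called transcripts 4 were tested only because the group where they are high passed the minimum of 1 FPKM, which no library of the other group reached, as were 79 of the 1054. Such a transcript had to differ, and the values of 3 of the 4 follow as a description. Saa3-203, which starts inside Saa3, was at 1.22 to 1.60 FPKM in DSS and 0.0352 to 0.158 in FGF1. Paxx-208, of a DNA repair factor, was listed at 0 in every DSS library and at 1.02 to 2.39 in FGF1. Large2-214, of a glycosyltransferase of dystroglycan, was also listed at 0 in every DSS library and at 1.03 to 2.24 in FGF1. Paxx-208 and Large2-214 were at 0.976 FPKM or more in every control. The number of transcripts called ran from 1 (without FGF1 1, FGF1 2 or FGF1 3, each) to 14 (without DSS 1).

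Shares of transcripts within genes gave no call. Among 14412 transcripts of genes with at least 2 kept transcripts, limma called 0, with 907 (6.29%) at an unadjusted p under 0.05, 459 higher (3.18%) and 448 lower (3.11%). Shares did not overlap for 504 (3.5%), 270 higher (1.87%) and 234 lower (1.62%). Next to Adtrp-201, the smallest adjusted p was that of Wdr83-201, of a scaffold and splicing protein, at 21.5% to 41.4% of its gene in DSS and 70.9% to 79.2% in FGF1 (adjusted p = 0.0594). Prpsap2-203, of a nucleotide synthesis regulator, made up 65.6% to 81.5% in DSS and 0% to 27.9% in FGF1 (adjusted p = 0.0594). Kifc2-204, of a kinesin motor, made up 86.2%, 37.4%, 86.3% and 91.5% in DSS and 5.81%, 6.50%, 9.13% and 27.8% in FGF1 (adjusted p = 0.196). The shares of Mta1-204 and Rbbp7-202, both of the NuRD chromatin complex, were higher in FGF1 and those of Fam241b-208 and Acin1-216 lower, with adjusted p from 0.17 to 0.196.

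Ogdh, the first subunit of the mitochondrial 2-oxoglutarate dehydrogenase of the citric acid cycle, has a pair of coding exons of which 4 of its transcripts carry one or the other, while Ogdh-205, Ogdh-206 and Ogdh-207 carry neither. The exons are printed with 12 bases of the neighbouring exons, from the GENCODE M21 transcripts, plus strand of GRCm38, exon in capitals. Ogdh-202 and Ogdh-203 carry chr11:6316765-6316855 (91 bases), and Ogdh-201 and Ogdh-204 carry chr11:6316978-6317080 (103 bases).
Ogdh-202 exon: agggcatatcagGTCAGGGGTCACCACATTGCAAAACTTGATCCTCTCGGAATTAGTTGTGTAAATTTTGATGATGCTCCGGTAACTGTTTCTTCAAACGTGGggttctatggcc
Ogdh-204 exon: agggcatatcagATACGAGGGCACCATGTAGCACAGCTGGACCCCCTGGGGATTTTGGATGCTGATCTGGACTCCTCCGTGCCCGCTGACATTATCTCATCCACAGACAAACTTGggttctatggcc
Transcripts with the exon of Ogdh-202 held 28.9%, 22.0%, 19.6% and 18.4% of the gene in DSS and 95.5%, 61.5%, 91.1% and 92.2% in FGF1. The groups did not overlap, and the controls (36.3% to 94.3%) lay above every DSS library and overlapped FGF1. Transcripts with the exon of Ogdh-204 held 75.0% ± 4.45 in DSS and 10.999% ± 14.999 in FGF1 (SD, n = 4 per group). This grouping by exon was made after the shares were seen and has no test. The share of Ogdh-204 alone had an adjusted p of 0.196, and the level of Ogdh-202 one of 0.0718 (2.02 ± 0.30).

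**Figure D3:**
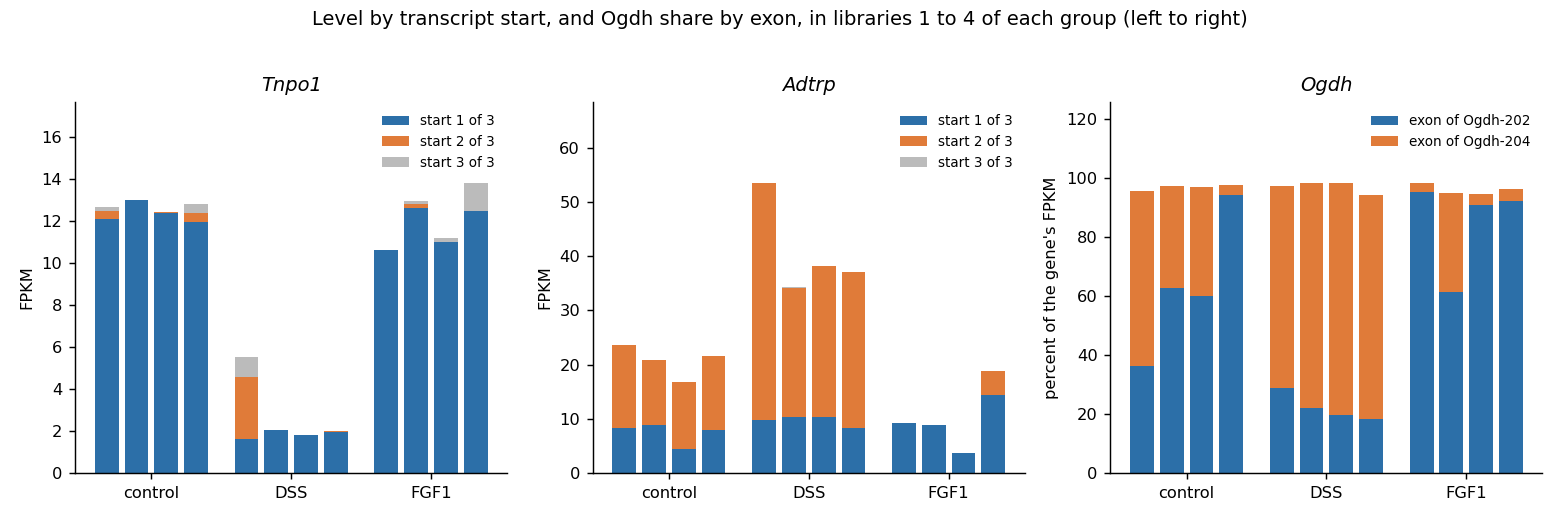
Stacked FPKM of Tnpo1 and Adtrp by group of transcript starts (starts under 500 bases from the next form a group, numbered 5′ to 3′), and percent of Ogdh FPKM by exon, 1 bar per library in the order 1 to 4 within each group. Start 2 of Adtrp is at 23.9 to 43.8 FPKM in DSS and at 0 to 4.44 in FGF1, and the Ogdh-202 exon at 18.4% to 28.9% and 61.5% to 95.5%.

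Goblet cell genes stood mostly above DSS in the FGF1 colon, but none passed the test. Of 28 goblet genes kept, 24 were higher on average in FGF1 and 8 were higher without overlap, with none lower without overlap, and their median log2 fold change was 0.44. Over all genes 6810 of 11868 were higher on average, 4.32% were higher and 1.91% lower without overlap, and the median was 0.04. Muc2, the gel-forming mucin of the mucus layer, was at 2055, 1334, 2136 and 2426 FPKM in DSS and 2991, 3620, 3965 and 2831 in FGF1 (0.77 ± 0.25, adjusted p = 0.222). Agr2, a disulfide isomerase needed to fold mucins, was at 1034 ± 186 and 1704 ± 321 (0.72 ± 0.19, adjusted p = 0.144). Both were without overlap between the groups.

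Creb3l1, a secretory pathway transcription factor, was the listed goblet gene of smallest p after Slc12a8. Its level was 57.4, 43.6, 52.4 and 45.2 FPKM in DSS and 80.7, 87.4, 95.3 and 67.5 in FGF1 (0.72 ± 0.13, adjusted p = 0.0602). Slc12a8, a transporter of the cation chloride family, was at 20.4 ± 3.23 and 36.4 ± 2.37 (0.81 ± 0.14, adjusted p = 0.0508). Spdef, which drives goblet cell maturation, overlapped (23.0 ± 5.00 and 29.1 ± 4.62, adjusted p = 0.439), as did Zg16, a lectin of the mucus (645 ± 106 and 471 ± 293, adjusted p = 0.698). The list score of FGF1 1 (5.53) was near the DSS scores (5.41 to 5.47), and those of the other FGF1 libraries were 5.88 to 6.04.

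Absorptive colonocyte genes held the only called members of any list. Of 32 kept, Slc9a3 and Saa1 fell and none rose, beside 0.0337% of all genes called lower and 0.0506% called higher. The lists were chosen with earlier results of these data known, so this count is a description and no support. On average 10 of the 32 were higher in FGF1, 5 were lower without overlap (1.91% over all genes) and 1 higher (4.32%), and the median was -0.26. The list scores overlapped (6.59 to 7.85 in DSS and 6.58 to 7.33 in FGF1). Guca2b, which encodes uroguanylin, a regulator of fluid secretion, was at 50.7, 65.7, 77.4 and 118 FPKM in DSS and 46.6, 40.9, 30.8 and 34.1 in FGF1 (-0.96 ± 0.23, adjusted p = 0.118). Tmigd1, an adhesion protein of the colonocyte surface, was at 89.6 to 185 in DSS and at 79.0, 0.560, 1.55 and 2.97 in FGF1. The difference was large (-4.53 ± 1.23, adjusted p = 0.159), with FGF1 1 apart from the other FGF1 libraries and the controls spread from 1.79 to 86.0.

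Among 19 ion transport genes, the median was -0.20 (0.047 with start-event sums), and no overlap occurred in 3 higher (4.32% over all genes) and 3 lower genes (1.91%). Sgk1, a kinase that activates sodium channels and exchangers, was at 118 to 261 FPKM in DSS and 64.3 to 82.7 in FGF1 (-1.36 ± 0.32, adjusted p = 0.118). Atp1b1, a subunit of the sodium pump, was at 567 to 709 and 407 to 489 (-0.50 ± 0.12, adjusted p = 0.112). Ano1, a calcium-gated chloride channel that pacemaker cells of the gut wall also express, was higher, at 2.71 to 3.74 and 5.66 to 14.8 (1.09 ± 0.34, adjusted p = 0.22).

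Sgk1 is also a target of the glucocorticoid receptor, and 3 of 11 kept glucocorticoid targets were lower without overlap (1.91% over all genes). Fkbp5, a chaperone that restrains the receptor, was at 204, 144, 155 and 170 FPKM in DSS and 68.6, 110, 51.8 and 77.2 in FGF1 (-1.16 ± 0.24, adjusted p = 0.0798). All 4 DSS libraries were also above all controls (38.8 to 68.3). The list median was -0.10, and 8 of the 11 were lower on average. Of 28 detoxification genes, 25 were lower on average in FGF1 with a median of -0.31, which turned to 0.28 with the fibroblast score as covariate. Among them was Cyp3a13, a cytochrome P450, at 110 to 130 and 37.5 to 79.5 (-0.997 ± 0.249, adjusted p = 0.137).

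Gasdermin C genes were higher on average in FGF1, with wide spread between libraries. Gsdmc3 was at 2.93, 29.3, 18.2 and 10.3 FPKM in DSS and 80.9, 45.1, 102 and 62.0 in FGF1 (2.47 ± 0.54, adjusted p = 0.0985). Gsdmc2 was at 10.05 to 104 and 109 to 267 (2.32 ± 0.59, adjusted p = 0.143), and Gsdmc4 at 2.12 to 107 and 59.4 to 249, which overlapped (2.99 ± 0.84, adjusted p = 0.175). Gasdermins form membrane pores when cleaved, and these mouse copies are so alike that fragments may be shared among them. Gsdmd, the main pore former of pyroptosis, was lower without overlap (-0.28 ± 0.08, adjusted p = 0.196). The controls were at 62.2 to 200 FPKM for Gsdmc3, 227 to 756 for Gsdmc2, 278 to 616 for Gsdmc4 and 59.5 to 66.7 for Gsdmd. Of 14 kept gasdermin and inflammasome genes, 8 were higher on average in FGF1, with a median of 0.11. Without overlap, 2 were higher (4.32% over all genes) and 1 lower (1.91%).

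Crypt base genes were mostly higher and cell cycle genes mostly lower on average in FGF1, with none called. Of 18 crypt base genes, 15 were higher on average in FGF1 and 3 without overlap (4.32% over all genes), with a median of 0.13. Lgr5, the Wnt-dependent marker of crypt base stem cells, was at 1.07 to 2.08 FPKM in DSS and 1.67 to 2.24 in FGF1 (0.25 ± 0.15, adjusted p = 0.528). Ephb3, which positions cells along the crypt, was at 3.83 to 5.01 and 5.97 to 9.63 (0.59 ± 0.15, adjusted p = 0.148). Aqp4, a water channel, was at 2.92 to 10.6 and 14.2 to 58.6 (2.02 ± 0.59, adjusted p = 0.186). Of 28 cell cycle genes, 24 were lower on average, with a median of -0.22. Their list scores overlapped (4.09, 3.64, 3.40 and 2.99 in DSS 1 to DSS 4 and 3.16 to 3.50 in FGF1). Only 1 of the 28 was lower without overlap (1.91% over all genes). It was Pcna, the sliding clamp of DNA replication, at 78.2 to 90.6 in DSS and 53.7 to 67.4 in FGF1 (adjusted p = 0.15).

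The fetal-like repair list (22 kept, median 0.25, and -0.22 with the fibroblast score as covariate) had Lama3, a basement membrane laminin chain, at 6.54, 4.40, 3.24 and 2.49 FPKM in DSS and 7.06, 9.19, 7.60 and 13.6 in FGF1. Its FGF1 libraries stood above DSS and above the controls (2.88 to 3.47), with a log2 fold change of 1.02 ± 0.23 and an adjusted p of 0.11. Enteroendocrine (16 kept, median 0.11) and tuft cell genes (10 kept, all higher on average, median 0.24) had no member without overlap. The enteroendocrine median turned to -0.11 without DSS 3, to -0.20 without DSS 3 and DSS 4, and to -0.0052 with the smooth muscle score as covariate. The tuft median turned to -0.029 with the smooth muscle score and -0.063 with the fibroblast score.

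FGF signalling genes did not separate the groups. Of 28 kept, 20 were higher on average in FGF1, none without overlap, and the median was 0.16 (-0.080 with the fibroblast score as covariate). Fgf1 itself was at 6.63, 2.95, 5.26 and 4.97 FPKM in DSS and 6.59, 7.19, 9.32 and 5.39 in FGF1, which overlapped (0.47 ± 0.20, adjusted p = 0.359). These values are of the mouse gene, so they say nothing of protein that was given. Fgfr2, the receptor gene that the study also deletes in stem cells, was at 6.28 to 17.8 and 8.76 to 15.9 (0.28 ± 0.28, adjusted p = 0.726), and Fgfrl1, a decoy receptor, differed by -0.73 ± 0.25 (adjusted p = 0.263). Notch genes (16 kept, 13 higher on average, median 0.17) and Wnt genes (15 kept, 10 higher, median 0.10, and -0.17 with the fibroblast score) had no higher member without overlap. Of the Wnt genes 1 was lower without overlap (1.91% over all genes), and of the Notch genes none.

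Protein folding genes were mostly higher on average, with none called. Of 26 genes of endoplasmic reticulum stress and folding, 23 were higher on average and 4 without overlap (median 0.25), beside 6810 of 11868 and 4.32% over all genes. Among the 4 were the disulfide isomerase Pdia4 (36.4 to 43.4 FPKM in DSS and 45.3 to 61.4 in FGF1, adjusted p = 0.148) and the chaperone Hyou1 (11.2 to 15.1 and 15.6 to 22.3, adjusted p = 0.197). Of 19 heat shock genes, 17 were higher and 4 without overlap (4.32% over all genes, median 0.18), including the co-chaperone Bag3 (16.6 to 19.5 and 23.2 to 30.7, 0.54 ± 0.11, adjusted p = 0.0827). Of 25 genes of sterol and fatty acid synthesis, 21 were higher and 5 without overlap (4.32% over all genes), with a median of 0.26 that turned to -0.059 with the fibroblast score as covariate. Scd2, a fatty acid desaturase, was at 9.91 to 13.2 and 15.5 to 24.3 (0.67 ± 0.15, adjusted p = 0.101), above the controls (10.3 to 13.4) as well, and Mvd, of the mevalonate pathway, was at 21.8 to 25.1 and 27.0 to 33.5 (adjusted p = 0.171).

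**Figure D4:**
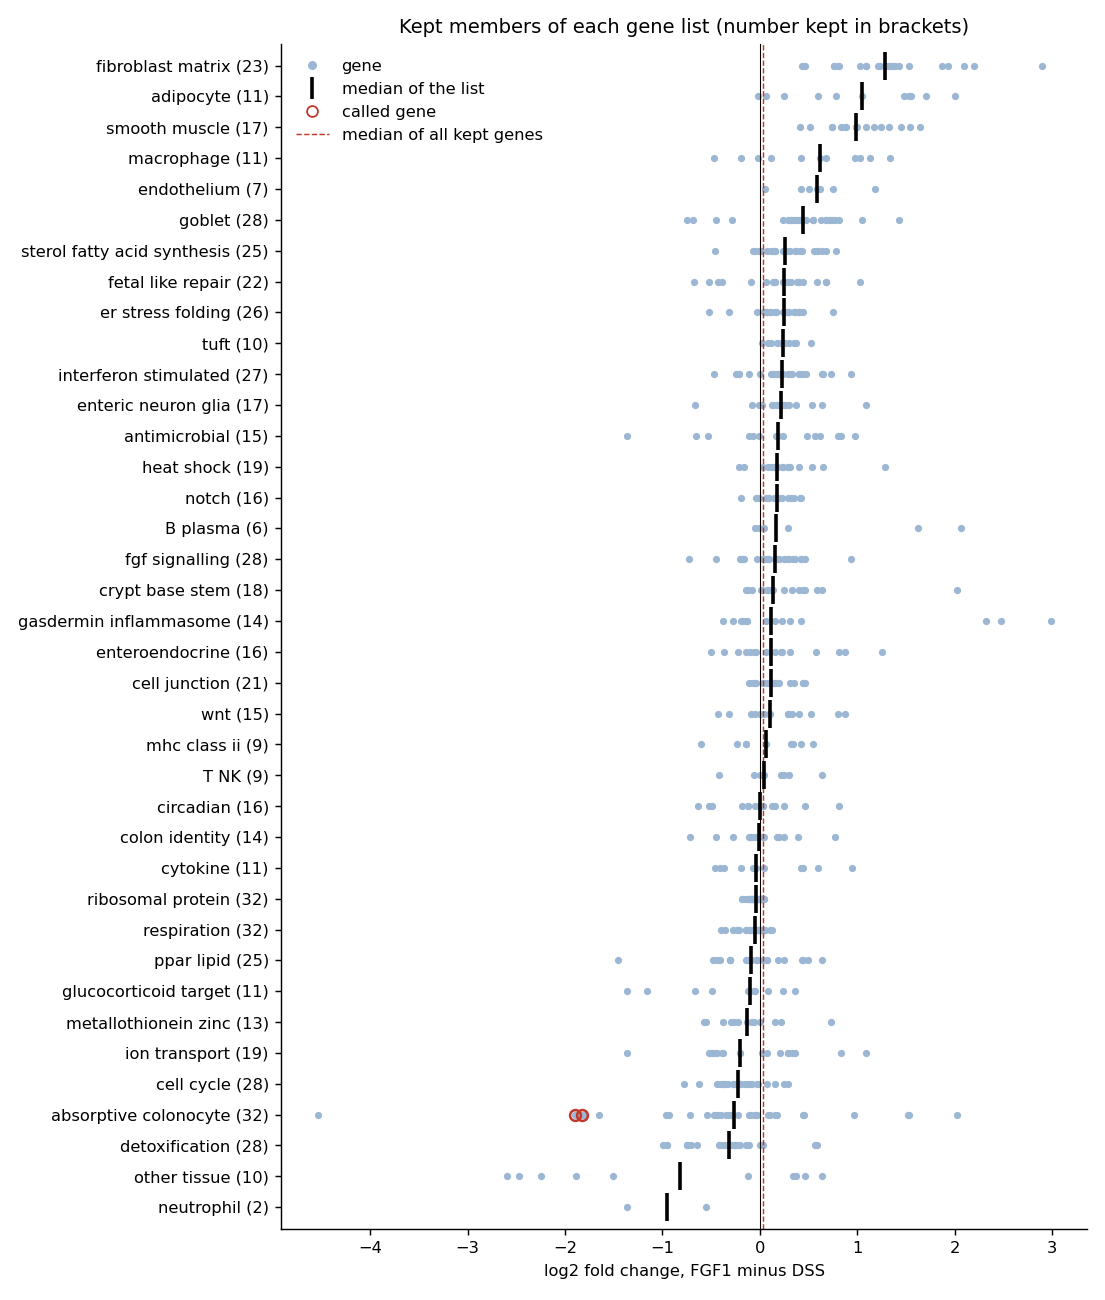
Log2 fold change of FGF1 against DSS for each kept member of 38 gene lists, with a black bar at the list median and a dashed line at the median of all kept genes (0.04). Fibroblast and matrix genes lie highest (median 1.29) and the 2 kept neutrophil genes lowest (-0.96), and the 2 ringed called genes are Slc9a3 and Saa1.

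Genes of the connective tissue and muscle of the wall were higher in the FGF1 colon than in DSS on average, with none called. All 23 kept fibroblast and matrix genes were higher on average, 10 without overlap (4.32% over all genes), with a median of 1.29 (-0.034 with the score of this same list as covariate). Col3a1, a fibrillar collagen, was at 18.5, 9.63, 4.42 and 2.63 FPKM in DSS and 19.6, 30.9, 60.1 and 44.2 in FGF1 (2.20 ± 0.46, adjusted p = 0.0881). Sparc, a collagen-binding matrix protein, was at 9.14 to 38.9 and 50.4 to 106 (1.93 ± 0.39, adjusted p = 0.0788), and Lum, a collagen-binding proteoglycan, at 0.887 to 2.43 and 4.23 to 11.05 (1.53 ± 0.29, adjusted p = 0.0699). With the fibroblast score as a covariate, 5 genes were called, none of them among the 10. In bulk tissue, fewer cells of a type and less RNA per cell cannot be told apart.

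The 17 smooth muscle genes were all higher on average, none without overlap (median 0.98). Their summed level was 1036 to 2947 FPKM in DSS, 1771 to 9493 in FGF1 and 3672 to 11180 in control, and none was listed at 0. The fibroblast list summed to 73.9 to 278.6 in DSS, 301.9 to 683.8 in FGF1 and 665 to 1017 in control. Among the DSS libraries, the scores of both lists were lowest in DSS 3 and DSS 4, and the smooth muscle score was highest in FGF1 3 (8.21) and lowest in FGF1 4 (5.83) among the FGF1 libraries. The part of these layers in the 10 calls was not tested. The fibroblast scores did not overlap between the groups (1.48 to 3.11 in DSS and 3.15 to 4.27 in FGF1). As a covariate this score therefore also takes up the difference between the groups. By limma Slc9a3 differed by -1.74 on the log2 scale with the smooth muscle score as covariate (adjusted p = 0.0508). With the fibroblast score it differed by -1.51 (adjusted p = 0.192). Adipocyte genes (11 kept, 10 higher on average, median 1.05) and endothelial genes (7 kept, all higher, median 0.59) had none without overlap. With the fibroblast score as covariate the endothelial median turned to -0.33 and the smooth muscle median to -0.54, and with the smooth muscle score the latter was -0.044.

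Immune cell genes were unevenly measurable. Of 11 kept macrophage genes, 8 were higher on average in FGF1 (median 0.62), with C1qb, a complement component, at 4.08, 2.33, 2.37 and 1.58 FPKM in DSS and 3.57, 7.53, 9.90 and 13.1 in FGF1 (1.34 ± 0.31, adjusted p = 0.112). Igha, the heavy chain of immunoglobulin A, was at 30.7, 92.2, 35.3 and 81.6 in DSS and 119, 151, 316 and 472 in FGF1. The groups did not overlap, and both lay below the controls (684 to 2016). Its log2 fold change was 2.07 ± 0.51 (adjusted p = 0.135), and Jchain, which links its dimers, overlapped (1.63 ± 0.62, adjusted p = 0.304). All 9 kept immunoglobulin variable segments were also higher on average (6810 of 11868 over all genes), 6 without overlap (4.32% over all genes), with adjusted p from 0.0682. This class was singled out after its values were seen. Whether any of the 6 was kept only through the FGF1 libraries, and so had to differ, was not examined. The class is therefore given as a description.

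Of 20 neutrophil genes 2 were kept, Ly6g and S100a9, and they followed single libraries. Ly6g was at 86.6, 3.63, 27.7 and 1.23 FPKM in DSS and 3.72 to 12.2 in FGF1 (-0.55 ± 0.99, adjusted p = 0.864), and 0.37 without DSS 1. S100a9, an alarmin, was at 24.5 and 8.54 in DSS 1 and DSS 3, and at 0 and 0.487 in DSS 2 and DSS 4. Haemoglobin RNA marked the same libraries, with Hbb-bs at 192 and 141 in DSS 1 and DSS 3 against 11.8 and 11.3 in DSS 2 and DSS 4 and 3.97 to 17.4 in FGF1. The 18 listed neutrophil genes summed to 3.73 to 141.7 FPKM in DSS and 5.13 to 16.2 in FGF1, and their part in the calls was not tested. Slc9a3 was at 151 and 112 FPKM in DSS 1 and DSS 3 and at 100 and 203 in DSS 2 and DSS 4.

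Of 38 cytokine genes 11 were kept, with a median of -0.04 (0.12 without FGF1 1), 1 lower without overlap (1.91% over all genes) and none called, and a gene high in fewer than 4 of the 8 libraries could not be kept. Of 27 interferon-stimulated genes, 21 were higher on average and 3 without overlap (4.32% over all genes, median 0.22). Gbp2, a guanylate-binding protein of cell-autonomous defence, was at 1.37 to 2.39 FPKM in DSS and 3.21 to 5.54 in FGF1 (0.93 ± 0.18, adjusted p = 0.0785), and Isg20, an antiviral exonuclease, at 5.51 to 10.9 and 13.2 to 15.2 (adjusted p = 0.148). T and natural killer cell genes (9 kept, median 0.04, and -0.14 without FGF1 4) and MHC class II genes (9 kept, median 0.06, and -0.31 with the fibroblast score) had no member without overlap.

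Genes of tissues other than colon were low with exceptions in DSS. Their 16 listed members summed to 119 to 505 FPKM in DSS and 91.7 to 125.6 in FGF1, and the list score was highest in DSS 1 (4.10) and DSS 3 (3.95). Hbb-bs and Hbb-bt, haemoglobin genes of this list, were at 192 and 98.1 FPKM in DSS 1 and at 141 and 64.9 in DSS 3. In DSS 2 and DSS 4 they were at 4.98 to 11.8. Fabp6, an ileal bile acid binding protein, was at 3.88, 22.7, 12.7 and 58.7 in DSS and 1.69 to 7.38 in FGF1 (-1.89 ± 0.61, adjusted p = 0.231). Sis, a small intestinal disaccharidase, was at 0.598 to 12.1 and 0.183 to 1.52 (adjusted p = 0.259). Fabp6 and Sis stand beside Slc10a2 and Slc9a3, which the small intestine also expresses, and their part in those differences was not tested.

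**Figure D5:**
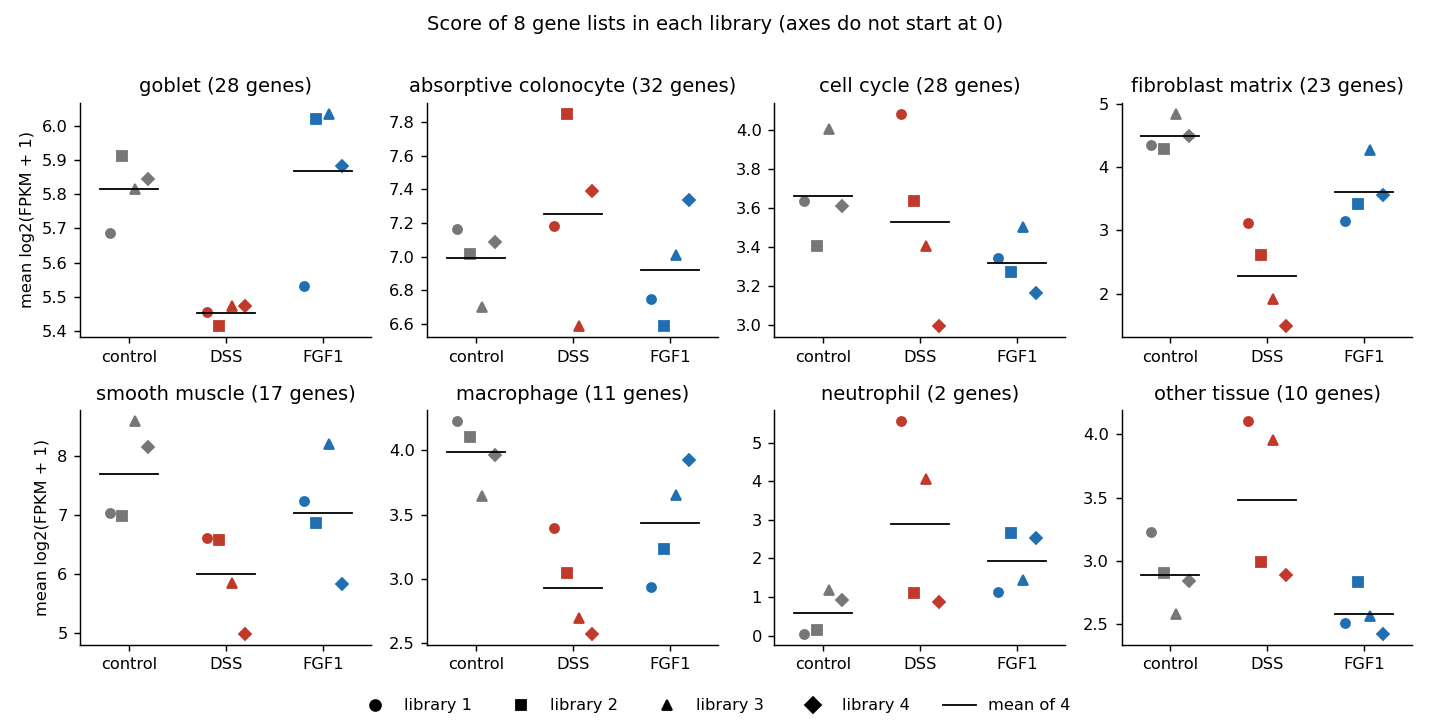
Mean log2(FPKM + 1) of the kept members of 8 gene lists in each library, by group, with the marker shape giving the library number and a line at the mean (axes do not start at 0). The fibroblast scores are 1.48 to 3.11 in DSS and 3.15 to 4.27 in FGF1, and the neutrophil scores are highest in DSS 1 (5.56) and DSS 3 (4.05).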

How the data were processed

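Poly(A)-selected RNA from mouse colon was sequenced, per the labels' protocols. Per the submitters' processing notes, the tools named are StringTie 1.3.4d, HISAT2 2.0.4, cutadapt 1.9 and edgeR on build GRCm38. Their settings, annotation and strandedness were not given in the sources used here. The deposited table gives FPKM per transcript and library from the authors, spread over splicing events, and a further deposited file gives the authors' counts of events of 12 types per library. The FPKM values in the deposited files of single libraries are all a placeholder, so the table was used.

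Each transcript was taken once per library (its largest listed value) and summed over its gene. Genes with 1 FPKM or more in at least 4 of the 8 FGF1 and DSS libraries were kept, and a pseudocount of 1 was added before log2, which understates changes of low genes. limma 3.58.1 (R 4.3.3) with a mean-variance trend was fitted over all 12 libraries in 3 groups, so that the controls add to the estimate of spread, with Benjamini-Hochberg adjustment over all features tested and a threshold of 0.05. It was fitted for genes, for transcripts, and for the log2 ratio of each transcript to the rest of its gene. Counts per library were compared by an exact two-sided permutation test (Python 3.11.15, scipy 1.17.1). The limma step was tested on simulated data. Depth was implied from the size of the smallest FPKM steps and is approximate, and its precision was not estimated.

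Only 40.96% of kept genes had every annotated GENCODE M21 transcript listed, so gene sums can omit transcripts. Transcripts with a start event made up less than 0.5 of the gene in only some of the 8 libraries for 3003 kept genes (25.3%). Of listed genes, 47 had no symbol.

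The comparison, its 38 gene lists and the genes named were chosen with earlier results of these data known. Named were all called genes, up to 12 of smallest p in each direction, up to 4 kept members of smallest p of each list, a set of study genes (Fgf1, Fgfr2, Slc9a3, Muc2, Agr2, Spdef, Lgr5, Col3a1, Igha, Jchain, Saa3, Guca2b and Zg16), the 10 transcripts and 10 shares of smallest p, and the kept transcripts of the genes of smallest p. One gene that this rule names, with its transcripts, is not reported here. The labels do not say that replicate numbers pair the samples, and the main fit took them as unpaired. Alternatives were other pseudocounts, filters, scalings, gene sums, covariates and library sets.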

Additional observations from a re-analysis of the deposited data

Results flagged for a closer look

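In 157 groups of 4 libraries, 9 had a highest or lowest library whose gap to the nearest other exceeded Dixon's 95% critical value as a share of the group's range, where chance gives about 1 in 20, or 7.8. In DSS 1, Tnpo1 was at 5.53 FPKM (the other DSS libraries 1.81 to 2.04) and Shroom2 at 1.4999 (0.819 to 0.933), and both are called genes. Jchain was at 15.9 FPKM in DSS 2 (3.76 to 4.85 in the others). Saa3-203 was at 0.158 FPKM in FGF1 2 (0.0352 to 0.0423 in the others). The adipocyte score was 1.97 in FGF1 4 (4.08 to 4.24 in the others). The Notch score was 3.04 in DSS 1 (2.69 to 2.74) and 2.85 in FGF1 4 (2.99 to 3.01), and the Wnt score was 3.27 in FGF1 3 (2.88 to 2.91). Genes at 1 FPKM or more numbered 12245 in FGF1 3 (11782 to 11832 in the others).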

How the results depend on the processing

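The 10 called genes became 3 with the 8 libraries fitted alone, 5 with no filter on low values, 16 with a minimum of 5 FPKM, 17 with median-of-ratios scaling (10 higher, 7 lower), 1 with start-event sums and 5 with only the largest transcript of a gene. They became 0 with the smooth muscle score as covariate, 5 with the fibroblast score, 0 without DSS 3 and DSS 4, and 2 without FGF1 3 and control 3. Leaving out 1 library gave 0 (FGF1 2) to 52 (DSS 1). The 6 called transcripts became 2 with the 5 FPKM minimum, 1 with either score, 12 without DSS 3 and DSS 4, and 2 without FGF1 3 and control 3, and 1 to 14 (DSS 1) when 1 library was left out. The 0 called shares became 5 with the 8 libraries alone, 4 with a pseudocount of 0.1, 2 with no filter, 4 without DSS 3 and DSS 4, and 0 to 5 (FGF1 4) when 1 library was left out. The replicate block gave 2 genes and 2 transcripts. Same-numbered DSS and FGF1 libraries correlated at -0.23, -0.19, -0.22 and 0.12 in their deviations, within the range of the other pairs (-0.25 to 0.26). These values were not tested and cannot decide whether the numbers pair the libraries. Directions reversed for Tnpo1 (-0.73, start-event sums), Spdef (-0.15, start-event sums), Zg16 (0.0460, smooth muscle score), Plvap (-0.0765), Fabp6 (0.0725) and Fgfr2 (-0.30) with the fibroblast score, and Fgfr2 (-0.12) without DSS 3 and DSS 4. List medians changed sign in 68 of 950 comparisons, over 22 of 38 lists, in 19 lists with the fibroblast score as covariate, 10 with the smooth muscle score, 7 without DSS 3 and DSS 4, 6 without DSS 3, and at most 4 under any other alternative. When 1 library was left out, Ly6g ran from -1.39 (without DSS 4) to 0.37 (without DSS 1). With the fibroblast score as covariate, Ly6g was at -2.89. The causes of these changes were not tested. Values from the files of single libraries, also intended, were not run because these hold a placeholder. Depth limits low transcripts, whose listed 0 may be a failed estimate.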

Other observations

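Lists not described above differed little between FGF1 and DSS. Genes of mitochondrial respiration (32 kept, 8 higher on average in FGF1, median -0.05), ribosomal proteins (32 kept, 9 higher, median -0.04) and lipid genes of the PPAR receptors (25 kept, 9 higher, median -0.09) lay near the median of all genes. Metallothionein and zinc genes (13 kept, median -0.14), antimicrobial genes (15 kept, median 0.19), cell junction genes (21 kept, 16 higher, median 0.11), enteric neuron and glia genes (17 kept, 14 higher, median 0.22) and clock genes (16 kept, 8 higher) had at most 1 member without overlap in each direction and none called by limma. The enteric neuron and glia median turned to -0.23 with the smooth muscle score as covariate, -0.49 with the fibroblast score, -0.27 without DSS 3 and DSS 4 and -0.049 without DSS 3. With the fibroblast score the medians of metallothionein (0.21), PPAR (0.20), ribosomal protein (0.18), respiration (0.10), cell junction (-0.0082) and clock genes (-0.16) also changed sign.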
